A study of Rattus norvegicus with 12 samples.

Results

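Retinal gene expression at p21 and p60 was compared within the athymic line of Royal College of Surgeons (RCS) rats, using the 6 of 12 deposited RNA sequencing libraries whose labels name that line. The 3 p21 libraries (4, 5 and 6) and the 3 p60 libraries (22, 23 and 24) came from whole retina of rats with the genotype RCS-p+/Foxn1mu at postnatal day 21 or day 60, all labelled female and untreated as far as the labels state. The other 6 libraries, from RCS-p+ retinas labelled WT and male (1, 2 and 3 at p21, and 19, 20 and 21 at p60), were used as a second line, called immunocompetent in the deposited description. Each library held 14167062 to 16725355 counts assigned to genes in the athymic line, and 15507 of the 32883 listed genes had enough counts to be tested.

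RCS rats carry a Mertk mutation. Mertk is the receptor through which the retinal pigment epithelium takes up shed photoreceptor outer segments, and in its absence debris builds up and photoreceptors die, with reactive changes in Müller glia and microglia. Foxn1 is a transcription factor of the thymic epithelium, so rats without it lack mature T cells, whereas microglia and innate immunity do not depend on the thymus. Both ages of the athymic line carry both mutations, and no retina without the Mertk mutation was included. Maturation between p21 and p60 and degeneration therefore cannot be told apart, and neither can labelled line and labelled sex. Whole retina is a mixture of cells, where fewer cells of a type and less RNA per cell also cannot be told apart.

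The question of which photoreceptor, glial and immune genes moved without mature T cells could be addressed only without gene names. The count tables list Ensembl identifiers, and 0 of the 32883 were paired with a symbol in the gene table at hand. Mertk, Foxn1 and the marker genes of retina, lens, glia and immune cells were therefore not analysed here, and the labelled tissue was not checked against its markers. Genes are given below by their Rnor_6.0 position, in groups defined by abundance, location or behaviour in the immunocompetent retinas, and identifiers are printed for 2 rises and 2 falls. No sequence could be tied to these identifiers.

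Libraries of 1 age differed among themselves. Y-chromosome genes summed to 328, 316 and 269 CPM (counts per 1000000) for libraries 4, 5 and 22, close to all 6 male-labelled retinas (229 to 323), while libraries 6, 23 and 24 had 8.79, 23.2 and 16.1. Thus 3 of the 6 athymic libraries, 2 at p21 and 1 at p60, had Y counts that went against their female label. Foxn1 was not analysed, so the line label of these libraries was not checked either, and athymic below means labelled so. Another 2 sets of genes, both chosen on the immunocompetent libraries alone, marked libraries rather than ages. Set A, 67 genes high in library 19, summed to 17737, 611 and 2863 CPM in libraries 4, 5 and 6, and to 380, 301 and 4637 CPM in libraries 22, 23 and 24. Set B, 37 genes on 20 chromosomes that were high in libraries 2 and 3, summed to 57.98, 52.9 and 4.19 CPM at p21, and to 494, 440 and 59.5 CPM at p60. Libraries 22 and 23 came near libraries 2 and 3 (498 and 489 CPM), whereas library 24 was nearer to the other 4 immunocompetent libraries (38.9 to 50.2 CPM). Of the 23 set B genes tested in the athymic line, 17 were called higher at p60, and 0 without libraries 22 and 23, a fit in which library 24 alone stood for p60. The set B gene with most counts in those libraries, at chr15:52211544-52214616, had 17.1, 9.63 and 0.0638 normalised CPM at p21 and 145, 122 and 17.3 at p60. Its log2 fold change was 3.42 with all 6 libraries and 0.95 without libraries 22 and 23 (adjusted p = 0.0186 and 0.593 by edgeR). Values without these libraries are given beside the main counts below.

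**Figure D1:**
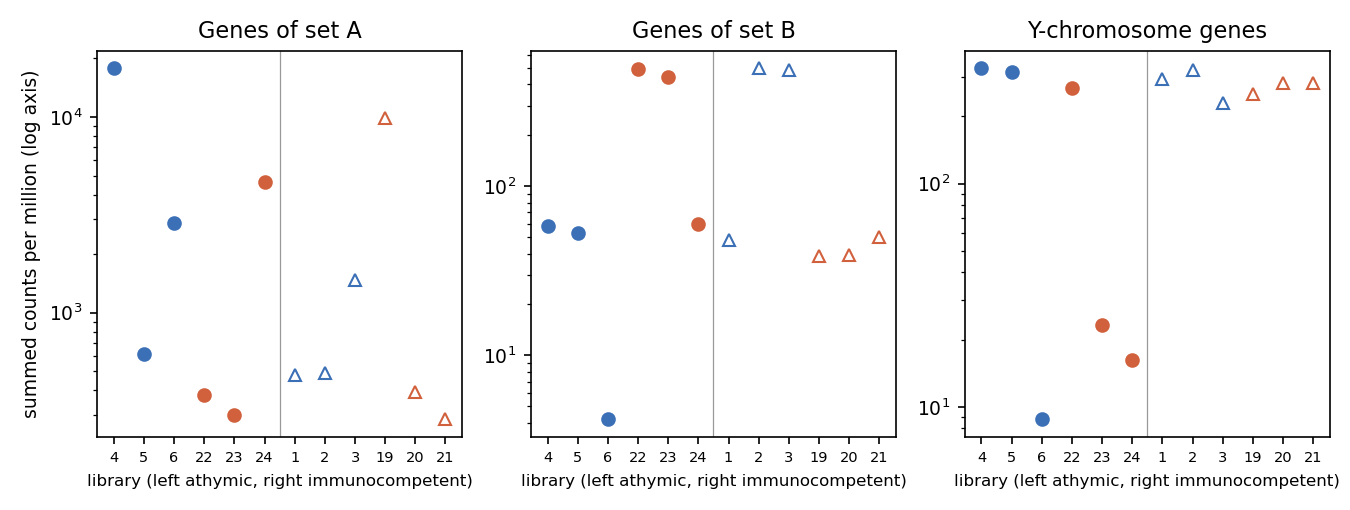
Summed CPM (log axis) of set A, set B and Y-chromosome genes in each library, with circles for athymic and open triangles for immunocompetent retinas, blue for p21 and orange for p60. Library 4 is highest for set A, libraries 22 and 23 stand with libraries 2 and 3 for set B, and libraries 4, 5 and 22 have Y counts near those of the libraries labelled male.

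Between p21 and p60, about as many genes rose as fell in the athymic retina. By edgeR's quasi-likelihood test at a Benjamini-Hochberg adjusted p under 0.05, 3923 genes were higher at p60 (25.3% of those tested) and 3817 were lower (24.6%). With libraries scaled to total counts in place of trimmed means (TMM), the split was 6025 higher and 2230 lower, where the median gene's log2 fold change moved from 0.0094 to 0.20. Most changes were small, with a median absolute log2 fold change of 0.60 among the rises and 0.51 among the falls. A change of at least 4-fold was seen in 182 rises (1.17%) and 189 falls (1.22%). The number of rises of at least 4-fold depended on library 24, since 280 were called without it, and 16 of the 182 were set B genes. Calls fell to 4970 without libraries 22 and 23, with 150 rises and 261 falls of at least 4-fold, and to 3338 without libraries 4, 5 and 22, with 144 and 178. Each of these fits left 1 retina at 1 age (24 at p60, or 6 at p21), assumed to vary like the retinas of the other age, so a call lost there does not show that a gene did not change.

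The most abundant nuclear genes of the young retina took a smaller share of counts by p60. Photoreceptors are the most numerous cells of a healthy rat retina, and their phototransduction genes are among its most abundant messages. The 100 nuclear genes with most counts were chosen in the immunocompetent p21 libraries, so that the athymic values played no part in the choice. A choice by level at p21 still favours genes that are higher at p21 than at p60, and no list was chosen at p60. In the athymic retinas these 100 genes took 15.0%, 15.7% and 16.1% of all counts at p21 and 8.80%, 9.03% and 8.68% at p60, with no overlap between the ages. Of the 100 genes, 73 fell and 12 rose, with a median log2 fold change of -0.65, against 24.6% and 25.3% of all genes tested. A fall of at least 2-fold was found in 44 and of at least 4-fold in 27, against 821 and 189 of all 15507 genes tested. By contrast, 0 rose by 2-fold or more, against 818 of all genes tested. The median log2 fold change of the 100 genes was -0.71 without libraries 4, 5 and 22.

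All of the 10 genes with most counts fell in the athymic line, each without overlap between the ages, as in 60.1% of all genes tested. The first lay at chr4:147832136-147837298 and had 21125, 21965 and 23252 normalised CPM at p21 against 3501, 4135 and 3529 at p60. It thus kept 0.168 of its p21 level (log2 fold change -2.58, standard error 0.074, adjusted p = 1.72e-07 by edgeR). The second, at chr8:116433302-116438038, had 10528, 11480 and 12777 normalised CPM at p21 and 1484, 1860 and 1466 at p60. It shares exonic positions with another gene, so reads of the pair may not be fully separable. The third, at chr5:172934990-172979986, fell from 5418 ± 34.6 to 1095 ± 86.2 normalised CPM (SD, n = 3 at each age). Of the 10, 9 fell by at least 4-fold, against 1.22% of all genes tested, and the 6 of these not yet described kept 0.135 to 0.242 of their p21 level. The exception, at chr8:64481172-64502722, had 2731, 2698 and 3048 normalised CPM at p21 and 1657, 1706 and 1733 at p60, a log2 fold change of -0.74. The 10 calls held in every fit that left out 1 library or the groups of libraries above.

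Genes that changed in the immunocompetent retinas moved largely the same way in the athymic ones. The lines share no libraries, so the immunocompetent retinas offered a choice of genes independent of the athymic values. In the immunocompetent line, 3944 genes were higher at p60 (25.6%) and 3971 were lower (25.8%). The genes that fell there by at least 2-fold took 17.5%, 18.3% and 18.5% of all counts in athymic libraries 4, 5 and 6, and 6.15%, 6.59% and 5.81% in libraries 22, 23 and 24. Of the 913 of these tested in the athymic line, 778 fell and 35 rose, against 24.6% and 25.3% of all genes tested there. Their median log2 fold change was -1.29, against -1.56 in the immunocompetent line. The genes that rose by at least 2-fold in the immunocompetent line took 1.36%, 1.23% and 1.33% of counts at p21 in the athymic line and 3.38%, 3.04% and 3.63% at p60. Of the 857 tested, 673 rose and 0 fell, against 25.3% and 24.6% of all genes. Medians were 1.07 in the athymic and 1.32 in the immunocompetent line. In both lists the size of the immunocompetent median was raised by the choice of genes in that line. A smaller athymic median therefore does not show a smaller change. Without libraries 4, 5 and 22, the athymic median was 1.06 for the rising and -1.32 for the falling genes. Of the falling genes, 0 rose without libraries 22 and 23, 7 without libraries 4, 5 and 22, and 65 without libraries 4 and 24.

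**Figure D2:**
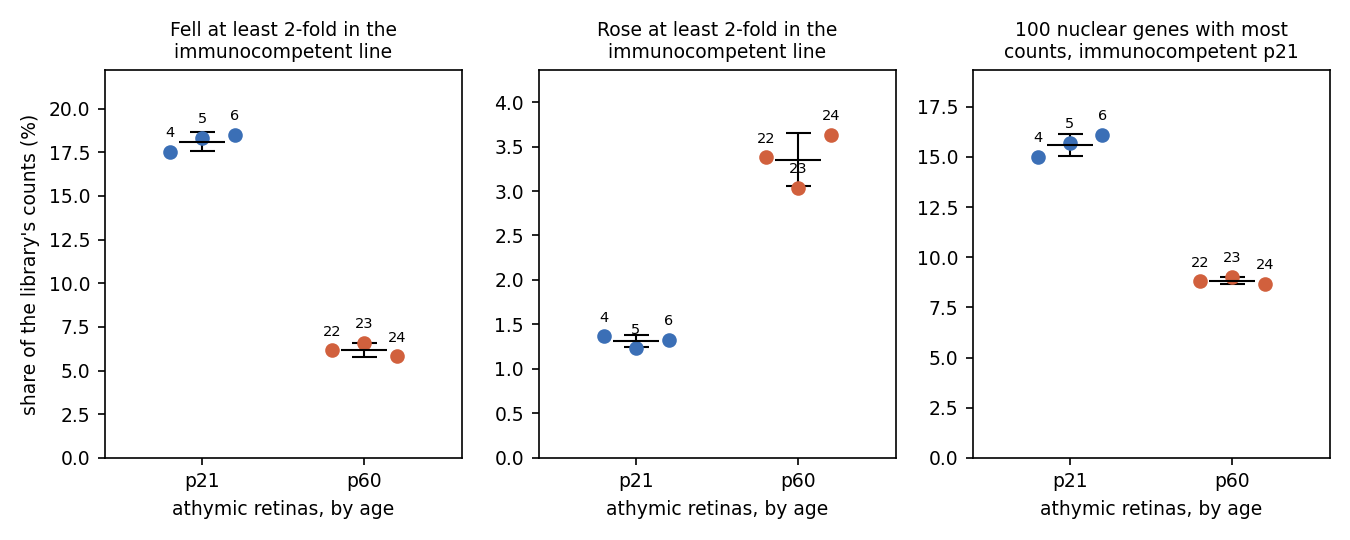
Share of each athymic library's counts (%) taken by genes that fell or rose at least 2-fold in the immunocompetent line and by the 100 nuclear genes with most counts at p21 in that line. Points are numbered libraries, dashes are means and bars SD (n = 3). The falling genes went from 18.1% ± 0.524 to 6.19% ± 0.391 of counts, and the rising genes from 1.31% ± 0.0676 to 3.35% ± 0.298.

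Genes with large changes in the immunocompetent line followed the same pattern. Of 111 tested genes that rose at least 4-fold there, 103 rose and 0 fell in the athymic line, against 25.3% and 24.6% of all genes. Their median log2 fold change was 2.13 with all 6 libraries and 2.05 without libraries 4, 5 and 22. Of 260 tested genes that fell at least 4-fold there, 218 fell and 18 rose. The 18 opposite calls were mostly set B, which accounted for 14, and 0 of the 18 was called higher without libraries 22 and 23. The list had 6 genes called higher without libraries 4, 5 and 22, and 32 without libraries 4 and 24. Set B is high at p21 in 2 of 3 immunocompetent libraries and at p60 in 2 of 3 athymic ones, and its part in the other 4 was not tested.

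A test of the difference itself found 1 gene among 16069 whose change with age differed between the lines (0.00622%). The gene, ENSRNOG00000012067 at chr1:229003961-229019527, had 7.99, 6.72 and 8.10 normalised CPM in athymic retinas at p21 and 1.06, 0.486 and 0.945 at p60. In the immunocompetent retinas it had 6.74, 6.03 and 4.61 at p21 and 10.3, 8.37 and 8.33 at p60. Its level at p60 was thus low only in the athymic libraries, and the groups of the 2 lines did not overlap at that age. The log2 fold change was -3.19 in the athymic line and 0.64 in the immunocompetent line, and the difference was -3.82 (standard error 0.33, adjusted p = 0.00054 by edgeR). At an unadjusted p under 0.05 by edgeR, 1492 of the 16069 genes passed, where a share of 0.05 would pass with no difference in any gene. DESeq2 called 146 at the adjusted threshold. The edgeR count at that threshold was 92 without library 24, 138 without library 1 and 8 without library 6. Few calls here do not show that the lines changed alike, since the error of a difference between changes is larger than that of either change.

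**Figure D3:**
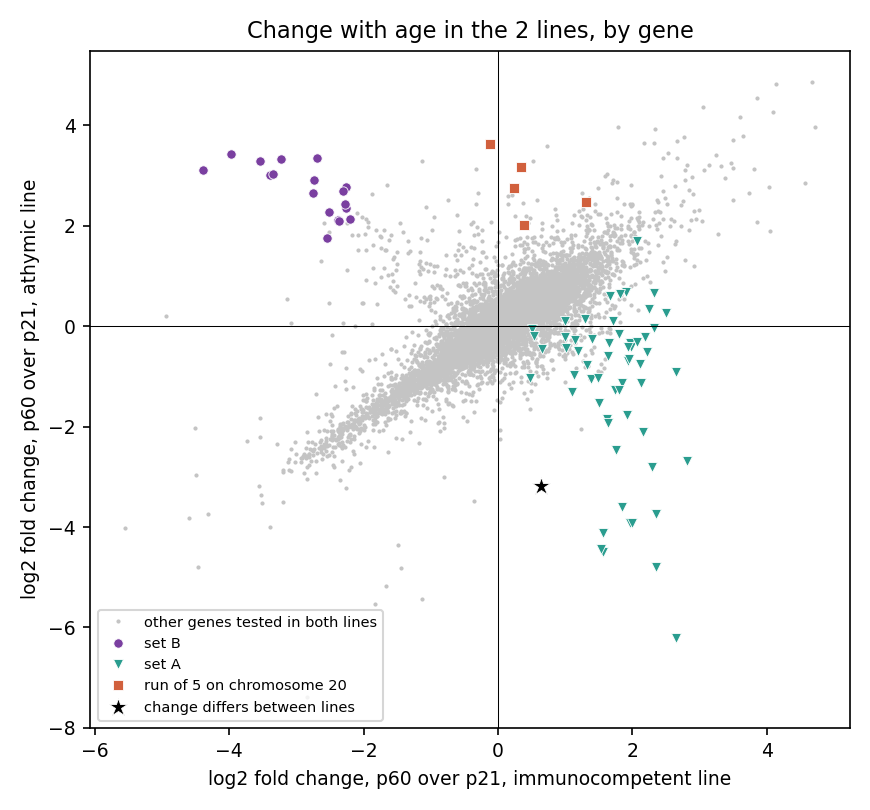
Log2 fold change from p21 to p60 of each gene in the athymic (vertical) against the immunocompetent line (horizontal). Most genes lie along the rising diagonal, with set B at upper left and set A at lower right. Both sets were chosen on the immunocompetent libraries, so their horizontal positions follow from that choice. The run of 5 genes on chromosome 20 lies near the upper vertical axis. The gene on chromosome 1 whose change differed (star) lies at 0.64 and -3.19.

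The 12 largest rises were chosen among genes with no overlap between the ages, a mean log2 CPM of at least 1 and no location on the Y chromosome. Their values are a description of that choice, since groups that do not overlap were a condition. The largest rise, ENSRNOG00000010478 at chr6:127941526-128080889, went from 0.143, 0.299 and 0.255 to 10.8, 3.71 and 6.74 normalised CPM, where its p21 libraries held only 2 to 4 counts. Library 22 was the highest and library 23 the lowest at p60. Next, ENSRNOG00000002919 at chr10:90990762-90999506 went from 18.1, 22.5 and 15.6 to 588, 396 and 601 normalised CPM, a 28.2-fold rise of the mean (log2 fold change 4.82, standard error 0.21). The gene at chr11:89008008-89009146 had 3.85, 4.18 and 4.53 normalised CPM at p21 and 103, 84.7 and 108 at p60. Its p60 level varied little between retinas, and it was 23.5 times the p21 mean.

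The other 9 rises spanned chromosomes 2, 5, 6, 10, 13, 19 and 20. A gene at chr13:51022681-51030802 had 33.5, 34.7 and 34.4 normalised CPM at p21 and 462, 311 and 568 at p60, so that its p21 retinas were nearly equal and its p60 retinas were not. The genes at chr5:139100898-139105792 and chr5:168009393-168035810 had p21 levels of 0.162 ± 0.0804 and 0.418 ± 0.139 normalised CPM (SD, n = 3) and p60 levels of 3.55 ± 0.435 and 6.70 ± 1.27. Libraries 4, 5 and 6 held only 1, 3 and 3 counts of the former and 8, 4 and 6 of the latter. A gene at chr19:11307967-11308740 rose from 2.78 ± 1.06 to 50.5 ± 2.45 normalised CPM, next to a second gene that rose at least 4-fold. The gene at chr2:124081072-124134681, with 1.14, 0.896 and 1.40 normalised CPM at p21 and 13.2, 13.2 and 18.7 at p60, shares exonic positions with another gene. The rises at chr6:114478293-114488880, chr13:52645257-52659619 and chr10:106975178-106976040 had p60 means 15.4, 14.4 and 12.9 times their p21 means, with no p60 library under 3.16 normalised CPM. Their p21 counts were low, with 5, 2 and 6 for the chromosome 13 gene and 4, 13 and 18 for the chromosome 10 gene in libraries 4, 5 and 6. The last of the 12 lay in the run on chromosome 20 described below. Of the 12 rises, 11 were also called higher in the immunocompetent line, against 25.6% of all genes tested there. None of the 12 belonged to sets A and B, and 0 lost their call when 1 library was left out.

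**Figure D4:**
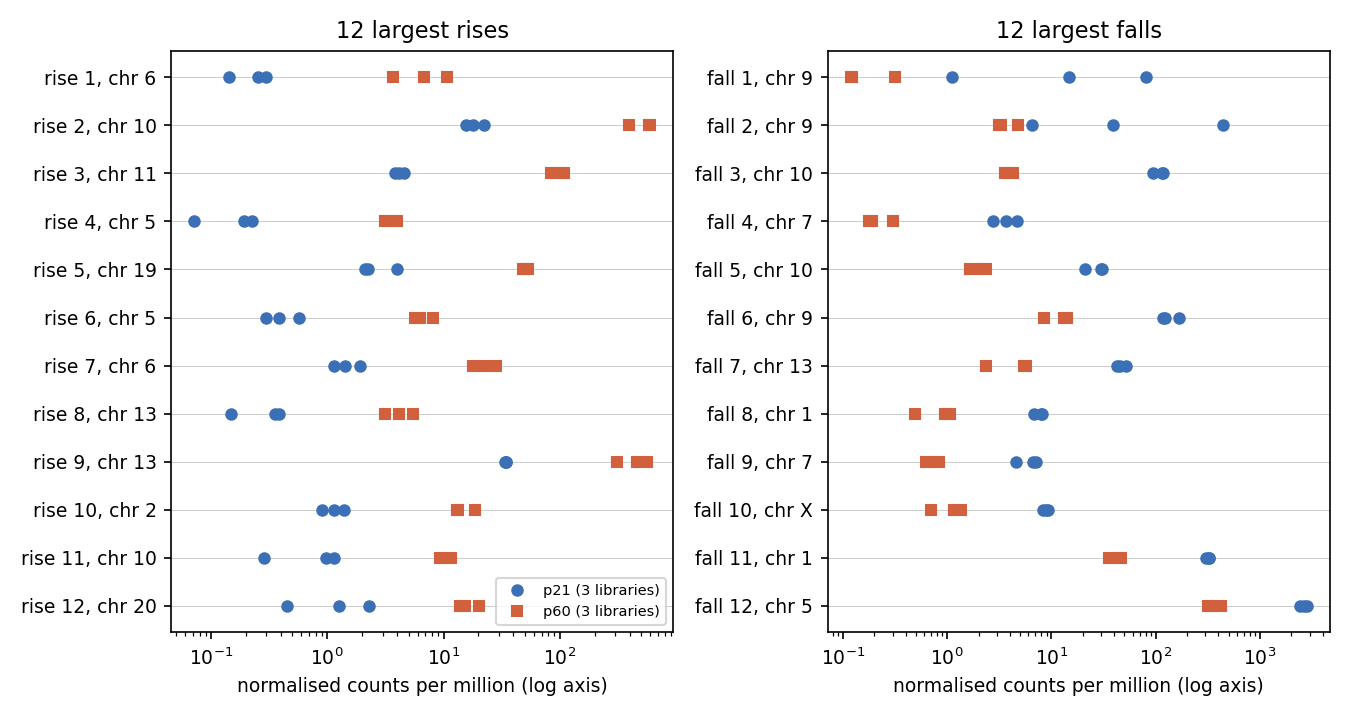
Normalised CPM (log axis) of the 12 largest rises and 12 largest falls in the 3 p21 (blue circles) and 3 p60 (orange squares) athymic libraries, with the chromosome of each gene. The ages do not overlap by the rule of choice, and the p21 points of falls 1 and 2 on chromosome 9 spread over 1.12 to 80.5 and 6.497 to 438 normalised CPM.

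The 12 largest falls were of 2 kinds. The first and second by size lay on chromosome 9 and varied widely between p21 retinas. Without library 4, their log2 fold changes went from -7.39 to -5.40 and from -5.43 to -2.63, and both stayed called. The gene at chr9:72933304-72935468 had 80.5, 1.12 and 14.7 normalised CPM at p21 and 0.118, 0.122 and 0.315 at p60 (log2 fold change -7.39, standard error 1.62). The gene at chr9:71828308-71830730 had 438, 6.497 and 39.1 at p21 and 3.13, 3.28 and 4.79 at p60. Library 4 was highest and library 6 next in both, the order in which set A ranked the p21 libraries. This gene ended a run of 4 neighbouring genes at chr9:71764318-71830730 that were all called at least 4-fold lower. In the first of the run, at chr9:71764318-71778323, library 4 had 1164 normalised CPM, library 5 had 8.36 and library 24 had 22.4, so the ages overlapped. The calls of 3 of the 4 were lost without library 4, 22 or 23, 1 of the 4 was called without libraries 4, 5 and 22, and 0 without libraries 22 and 23. Set A itself had 0 genes higher and 3 lower of 66 tested, against 38 lower without libraries 4 and 24, and 7 higher with 0 lower without libraries 22 and 23.

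The other 10 falls varied less between retinas of an age. ENSRNOG00000012134 at chr10:94505026-94557764 fell from 116, 117 and 95.1 to 3.54, 4.25 and 4.03 normalised CPM (log2 fold change -4.79, standard error 0.11, adjusted p = 1.72e-07 by edgeR). Its p60 level was 0.0361 of that at p21, and it formed a run with a neighbour that also fell at least 4-fold, at chr10:94466523-94557764. The gene at chr10:31431809-31493419 had 20.9, 29.6 and 30.2 normalised CPM at p21 and 2.07, 2.37 and 1.64 at p60. At chr9:94279155-94283919, levels went from 116, 123 and 166 to 8.39, 13.2 and 14.1. Both were also called lower in the immunocompetent line, as were 10 of the 12 in all, against 25.8% of all genes tested there. The exceptions were the gene at chr9:71828308-71830730 and the chromosome 1 gene described above. Of the smaller of these falls, a gene at chr1:225085282-225087266 went from 319 ± 12.9 to 42.1 ± 5.94 normalised CPM and a gene at chr13:112031594-112073186 from 46.6 ± 4.53 to 4.51 ± 1.89 (SD, n = 3). Genes at chr7:107695215-107723772 and chrX:35869538-35947282 stayed below 10 normalised CPM at p21 and kept 0.119 and 0.121 of that level. The gene at chr7:141258584-141261735 fell from 3.69 ± 0.949 to 0.223 ± 0.0699 normalised CPM, where 3 to 5 counts were left in each p60 library. The fall at chr5:15043955-15060508 combined size and abundance, with 2657, 2824 and 2420 normalised CPM at p21 and 336, 419 and 315 at p60. All 12 falls were called without libraries 4, 5 and 22, and 10 without libraries 22 and 23, the chromosome 9 pair being the exceptions.

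Changes of at least 4-fold in 1 direction occurred in 24 runs of neighbouring tested genes less than 50000 bases apart, 12 higher and 12 lower, holding 54 genes. A run of 3 rises at chr13:89296573-89433815 had log2 fold changes of 2.44 to 3.16. The longest was a run of 5 rises at chr20:3973420-4070721. Rat chromosome 20 carries the major histocompatibility complex near its start, a region dense in genes for antigen presentation, and class II molecules of this complex present antigen to CD4+ T cells. The fifth of the run, at chr20:4066132-4070721, had 2.28, 1.27 and 0.447 normalised CPM at p21 and 20.4, 15.4 and 13.7 at p60 (log2 fold change 3.64, standard error 0.40, adjusted p = 0.00012 by edgeR). The fourth, at chr20:4039413-4049711, went from 1.28, 0.672 and 0.638 to 9.16, 7.35 and 7.12. The other 3 rose from means of 0.939, 2.57 and 1.32 to 6.38, 10.5 and 7.36 normalised CPM. All 5 remained called without libraries 22 and 23 and without libraries 4, 5 and 22.

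In the immunocompetent line, 1 of the 5 was called higher, the gene at chr20:3990613-3993769, against 25.6% of all genes tested there. The fifth had 2.06, 17.2 and 12.6 normalised CPM in immunocompetent libraries 1, 2 and 3 at p21 and 8.37, 12.6 and 8.58 at p60. Libraries 2 and 3, which carry set B, thus stood with the p60 retinas, and library 1 stood with the athymic p21 retinas. The differences between lines were not called, with the lowest adjusted p at 0.176 by edgeR. Over the first 6 Mb of chromosome 20, 50 of 159 tested genes rose in the athymic line (31.4%) and 27 fell, against 25.3% and 24.6% of all genes, with a median log2 fold change of 0.091. Without library 22 the region had 19.4% higher against 19.7% of all genes. The shares were 16.7% against 14.3% without libraries 22 and 23, and 14.8% against 9.68% without libraries 4, 5 and 22. The falls numbered 16 and 12 in the latter 2 fits. On the rest of the chromosome, 74 of 281 rose and 86 fell. Across the autosomes and X, the share of genes that rose ranged from 21.5% on chromosome 16 to 31.0% on chromosome 4.

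**Figure D5:**
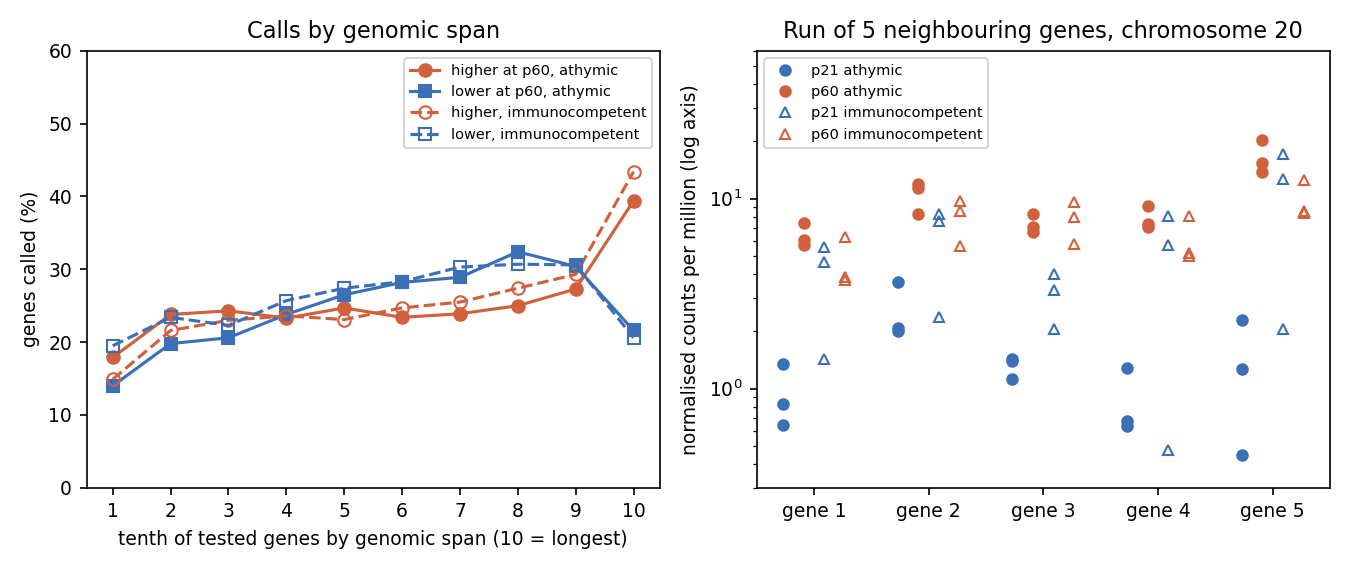
Left, percentage of tested genes called higher (orange) or lower (blue) at p60 in 10 equal bins of genomic span, with filled points for the athymic and open points for the immunocompetent line. Right, normalised CPM (log axis) of the 5 neighbouring genes on chromosome 20 in each library. Calls of higher level reach 39.4% in the bin of longest genes of the athymic line, against 25.3% of all genes. The 5 genes were chosen for rises of at least 4-fold in these athymic libraries. In each, all p60 athymic points lie above the p21 ones, where the ages did not overlap in 60.1% of all genes tested.

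Calls of a higher level were most frequent among genes with a long genomic span. With the tested genes in 10 bins of equal number by span, the bin of longest genes covered at least 117452 bases from first to last exon. There, 611 of 1551 rose (39.4%) and 335 fell (21.6%), against 25.3% and 24.6% of all genes. The median log2 fold change of this bin was 0.18. In the bin of shortest genes, up to 2115 bases, 278 of 1551 rose (17.9%) and 217 fell. The longest genes had a median of 469 counts in a library, the shortest 51.3 and the eighth bin 607. Falls were most frequent in the eighth bin, where 502 of 1551 fell (32.4%) and 388 rose. The immunocompetent line gave 43.4% higher and 20.6% lower in the bin of longest genes, against 25.6% and 25.8% of all genes tested there. Of the 1551 longest genes, 8 rose and 10 fell by at least 4-fold, against 182 and 189 of all 15507 tested. Rises of this size numbered 6 in the ninth bin and 9 in the eighth, with 20 falls in each. With total counts, 822 of the longest genes rose and 216 fell, against 38.9% and 14.4% of all genes. Without libraries 4, 5 and 22, 241 rose (15.5%, against 9.68% of all genes) and 197 fell, and without libraries 22 and 23, 354 rose (22.8%, against 14.3%) and 251 fell.

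Genes of the mitochondrial genome, which encodes subunits of the respiratory chain and the RNAs needed to translate them, took 4.38%, 4.18% and 3.86% of counts at p21 and 4.97%, 5.14% and 4.88% at p60. Of 23 tested, 10 rose (43.5%) and 1 fell (4.35%) in the athymic line, against 25.3% and 24.6% of all genes. In the immunocompetent line 8 rose (34.8%) and 0 fell, against 25.6% and 25.8% of all genes tested there. The median log2 fold change in the athymic line was 0.24. The size of this rise depended on the libraries kept. Without library 22, 7 of the 23 rose in the athymic line (30.4%, against 19.7% of all genes). Without libraries 22 and 23, which left library 24 alone at p60, the athymic median fell from 0.24 to 0.16. Without libraries 4 and 24, 13 of the 23 rose (56.5%, against 21.8% of all genes). With total counts 16 rose (69.6%, against 38.9% of all genes). No gene was switched fully on or off with age, since 0 genes had no counts in all 3 libraries of 1 age and at least 10 in each library of the other.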

How the data were processed

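The authors deposited raw read counts per Ensembl gene for each retina. Per the submitters' processing notes and the study's methods, polyA-selected RNA was read as pairs, aligned with STAR 2.5.2b to Rnor_6.0 and counted with featureCounts (Subread 1.5.2 in the notes). Strand and multi-mapping settings are not given in the sources used here, so overlapping and near-identical genes may share reads.

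Genes were filtered with filterByExpr (minimum count 10), scaled by TMM and tested with edgeR 4.0.16 (glmQLFit, glmQLFTest; R 4.3.3) on age within the 6 athymic libraries, and on age by line in all 12. P-values were Benjamini-Hochberg adjusted over all genes tested, with a threshold of 0.05. They measure the spread between numbered libraries, which may be technical. No 2 replicates were copies (chi-square per degree of freedom 3.93 to 22.7). Normalised CPM used TMM factors over 12 libraries. Scripts were tested on simulated data. Tables and figures were made with Python 3.11.15. DESeq2 1.42.0, other scalings, filters and left-out libraries were tried as alternatives.

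The rule took the 12 largest rises and falls with an adjusted p under 0.05. Its condition on symbols was dropped, its parts that need names were not applied, and the 4 printed identifiers were picked after values were seen. Fixed marker lists and promoter motifs were not analysed here, for want of gene names. Set A genes had at least 8 times the CPM in library 19 of that in libraries 20 and 21, and at least 5 CPM. Set B genes had in libraries 2 and 3 at least 4 times the CPM of the other immunocompetent libraries, and at least 1 CPM. Members, groups and lists were chosen with earlier results of these data known.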

Additional observations from a re-analysis of the deposited data

Results flagged for a closer look

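The gene at chr1:229003961-229019527 changed differently with age in the 2 lines by a test of the difference itself, where the log2 fold change in the athymic line was 3.82 units below that in the immunocompetent line (difference -3.82, adjusted p = 0.00054 by edgeR's quasi-likelihood test). Its athymic p60 libraries held 18, 8 and 15 counts, against 112, 90 and 127 at p21. Of 21 alternative fits, it was tested in 20 and called in 20, with adjusted p from 2.63e-20 to 0.0321. It could not be tested where every library had to hold at least 10 counts. Line and labelled sex cannot be told apart in this difference.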

How the results depend on the processing

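The total of 7740 calls was 1639 with a minimum absolute log2 fold change of 1, and, by alternatives chosen after seeing the data, 4970 without libraries 22 and 23 and 3338 without libraries 4, 5 and 22. Leaving out 1 library gave 6484 to 7293 calls, with 3097 to 3600 rises and 3239 to 3750 falls. Rises numbered 6025 and falls 2230 with total counts, 2311 rises without libraries 22 and 23, and 1575 rises and 1763 falls without libraries 4, 5 and 22. Rises of at least 4-fold numbered 75 with 10 counts in every library, 287 with no filter and 286 without libraries 4 and 24. Falls of at least 4-fold numbered 285 with no filter. Genes whose change differed between lines numbered 0 with 10 counts in every library, 146 with DESeq2, 115 with no filter and 2 without libraries 4, 5 and 22. Leaving out 1 library gave 146 to 280 rises and 186 to 257 falls of at least 4-fold, and 1 to 138 genes that differed between lines. Causes were not tested. Of 627 log2 fold changes recomputed for 40 genes described above, 0 changed sign and 21 lost their call, all on chromosome 9. The fixed lists were not run for want of gene names. No paired analysis was possible because the labels give every library a different number.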
